A study of Homo sapiens with 4 samples.

Results

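The genes examined were those of the splicing machinery whose protein coding symbols begin with HNRNP, with SRSF, SF3A, SF3B or PRPF and a digit, or with SNRP and a letter from A to G or a digit. Membership was set by symbol, under a rule chosen with earlier results of these data known. The rule found 68 of the 20372 genes in the count table, of which 66 were among the 12876 genes with enough reads to be tested. These 66 comprised 11 SR proteins, 22 heterogeneous nuclear ribonucleoproteins (hnRNPs), 9 SF3 subunits, 11 SNRP proteins and 13 PRPF proteins.

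RNA was sequenced from TPC1, an established human papillary thyroid carcinoma line that carries a CCDC6-RET fusion, after BLU6864, a small molecule inhibitor of the RET kinase, had been present for 6 h or 24 h. Each time has 2 libraries. All 4 libraries therefore come from the same line and carry the same drug, and vehicle-treated cells were not analysed here, so a difference between 24 h and 6 h is not a response measured against untreated cells. The labels give the dose as 100 µM, and the methods give the same digits in nM. In their titles the 24 h libraries, unlike those of 6 h, are called a re-analysis, and nothing in the labels says that 2 libraries of one time came from separate cultures, so P values measure only the spread between these libraries.

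The libraries held between 23917056 and 27457040 counted reads. Libraries of one time correlated across genes with a Spearman rho of 0.998, and those of different times with at most 0.941. Of the thyroid markers, PAX8 was between 19961 and 22045 normalized counts and FOXE1 between 268 and 541, whereas NKX2-1 and TSHR had 0 counts in all 4 libraries, and SLC5A5 reached at most 6.72. HHEX was between 147 and 205 normalized counts. TG, the thyroglobulin gene, was at 201 and 235 at 6 h and at 97.6 and 108 at 24 h, a fall of 1.09 on the log2 scale, while FOXE1 rose by 0.84. The keratin genes KRT8 and KRT18 were at 863 to 1861 normalized counts, while EPCAM and CDH1 reached at most 11.9. KRT19 fell from 108 and 120 to 36.9 and 38.9 normalized counts, a log2 fold change of -1.59. Of the white blood cell markers, PTPRC, LYZ, CD3E, CD79A and TYROBP never exceeded 5 counts, and CD14 had up to 91. The 16 genes of the list of cycling cell genes all fell from 6 h to 24 h, the median log2 fold change being -4.05. TOP2A, the topoisomerase of dividing cells, was at 13881 and 11818 normalized counts at 6 h and 467 and 485 at 24 h. The part of this change in the results below was not tested. In bulk RNA, fewer cells of a kind and less RNA per cell cannot be told apart.

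Introns are removed from pre-mRNA by the spliceosome, which is built from small nuclear ribonucleoproteins (snRNPs). Each of the U1, U2, U4 and U5 snRNPs carries a ring of Sm proteins around its RNA, the SF3A and SF3B complexes let the U2 snRNP hold the branch point, and PRPF proteins assemble and activate the U4/U6.U5 tri-snRNP and the catalytic core. SR proteins mostly bind exons and promote the use of nearby splice sites, whereas hnRNPs coat pre-mRNA and often repress them, so the balance between these families is known to shape which exons a cell includes. Several of these genes regulate their own mRNA through exons that bring on its decay, and a gene's read count does not separate such transcripts from those that make protein.

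Promoter sequences are shown first for the SNRP genes, because all 11 of them had a negative log2 fold change and their promoters often held the same short sequence. RefSeq promoter windows on GRCh38.p14, a build other than the hg19 build of the count table, run from 250 bases before to 50 bases after a gene's start, and 58 of the 66 tested members had one. The letters CCGGAAG, the core bound by the ETS family of transcription factors, were searched on both strands, where the reverse strand reads CTTCCGG. They stood in 7 of 10 SNRP promoters (70.0%) and in 6 of 8 SF3 promoters (75.0%), and in 1973 of the 10377 promoters of all genes tested (19.0%). The shares were 14.3% of 21 hnRNP promoters, 20.0% of 10 SR protein promoters and 22.2% of 9 PRPF promoters. The shares count matches in the whole window of a gene, and only the first listed window where a gene had several, as SNRPG and SNRPD2 did. The lines printed here are read 5′ to 3′ on the gene's strand and end before the annotated start. Capitals mark the last match that lies wholly before that start, and matches after it are not marked.
SNRPG, chr2:70293477-70293533, minus strand: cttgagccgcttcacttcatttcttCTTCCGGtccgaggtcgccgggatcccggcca
SNRPA1, chr15:101295330-101295386, minus strand: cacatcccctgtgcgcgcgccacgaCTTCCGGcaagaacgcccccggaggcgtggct
SNRPB, chr20:2470799-2470855, minus strand: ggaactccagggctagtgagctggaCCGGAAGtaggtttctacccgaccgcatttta
SNRPB2, chr20:16729979-16730025, plus strand: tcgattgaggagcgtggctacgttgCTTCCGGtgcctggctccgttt
SNRPD2, chr19:45692348-45692404, minus strand: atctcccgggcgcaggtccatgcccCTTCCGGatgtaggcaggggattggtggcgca
The match began 50 bases before the start in SNRPG, 113 in SNRPA1, 41 in SNRPB, 22 in SNRPB2 and 63 in SNRPD2. SNRPC and SNRPE also held it, and SNRPA, SNRPD3 and SNRPF did not. The log2 fold changes of the last 3, -0.40, -0.34 and -0.46, lay within the range of those with a match, -0.76 to -0.10. A match is a description of letters and not a site that was measured. The 300-base windows were searched for 9 motifs in all. Among these CCAAT stood in 66.7% of hnRNP, 66.7% of PRPF, 40.0% of SNRP, 12.5% of SF3 and 10.0% of SR protein promoters. Its share of the promoters of all genes was 36.6%. The E-box CACGTG stood in 33.3% of hnRNP promoters and in 10.0% of those of all genes. The letters AAGATGGC, a YY1 motif, stood in 37.5% of SF3 promoters and in 5.4% of those of all genes.

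The question was how the level of these mRNAs differed between 24 h and 6 h of RET inhibition. Genes were called where the absolute log2 fold change was over 0.5 and the unadjusted P of edgeR's quasi-likelihood test was under 0.01. "Rose" and "fell" are used for a Benjamini-Hochberg adjusted P under 0.05 over all genes tested, and normalized counts are reads scaled to a common library size. By the call, 6 members were lower at 24 h, against 17.7% of all genes tested, and 5 were higher, against 17.4%. Together these were 16.7% of the members, beside 35.1% of all genes. At the larger cutoff of an absolute log2 fold change over 1, the members lower and higher numbered 0 and 0, where 8.27% and 6.96% of all genes were called. DESeq2 gave 0 and 0 there too, while at an unadjusted P under 0.05 with no fold cutoff edgeR gave 21 members lower and 24 higher. Without a fold cutoff 20 members fell and 22 rose, beside 32.6% and 33.0% of all genes. In 26 members both 24 h libraries lay under both 6 h libraries and in 27 they lay over them, beside 40.8% and 41.0% of all genes.

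At the fold cutoffs the share of members called was thus under that of all genes, and by adjusted P alone it was 63.6% against 65.6%. Their median absolute log2 fold change was 0.257, and that of all genes was 0.374. They are also abundant, with a median of 2487 normalized counts against 795 and 58 of 66 above 1000. The median signed log2 fold change was 0.018 over the members and 0.003 over all genes, and it changed sign with the scaling, to -0.024 with library size alone, and to -0.041 without 6 h replicate 2 and -0.028 without 24 h replicate 1. Members together held between 0.979% and 1.02% of all counts in each library and these shares overlapped between the times. Of the 66 tested members, 26 have an annotated span that overlaps another gene in the table, and reads in such overlaps may be counted for either gene.

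**Figure D1:**
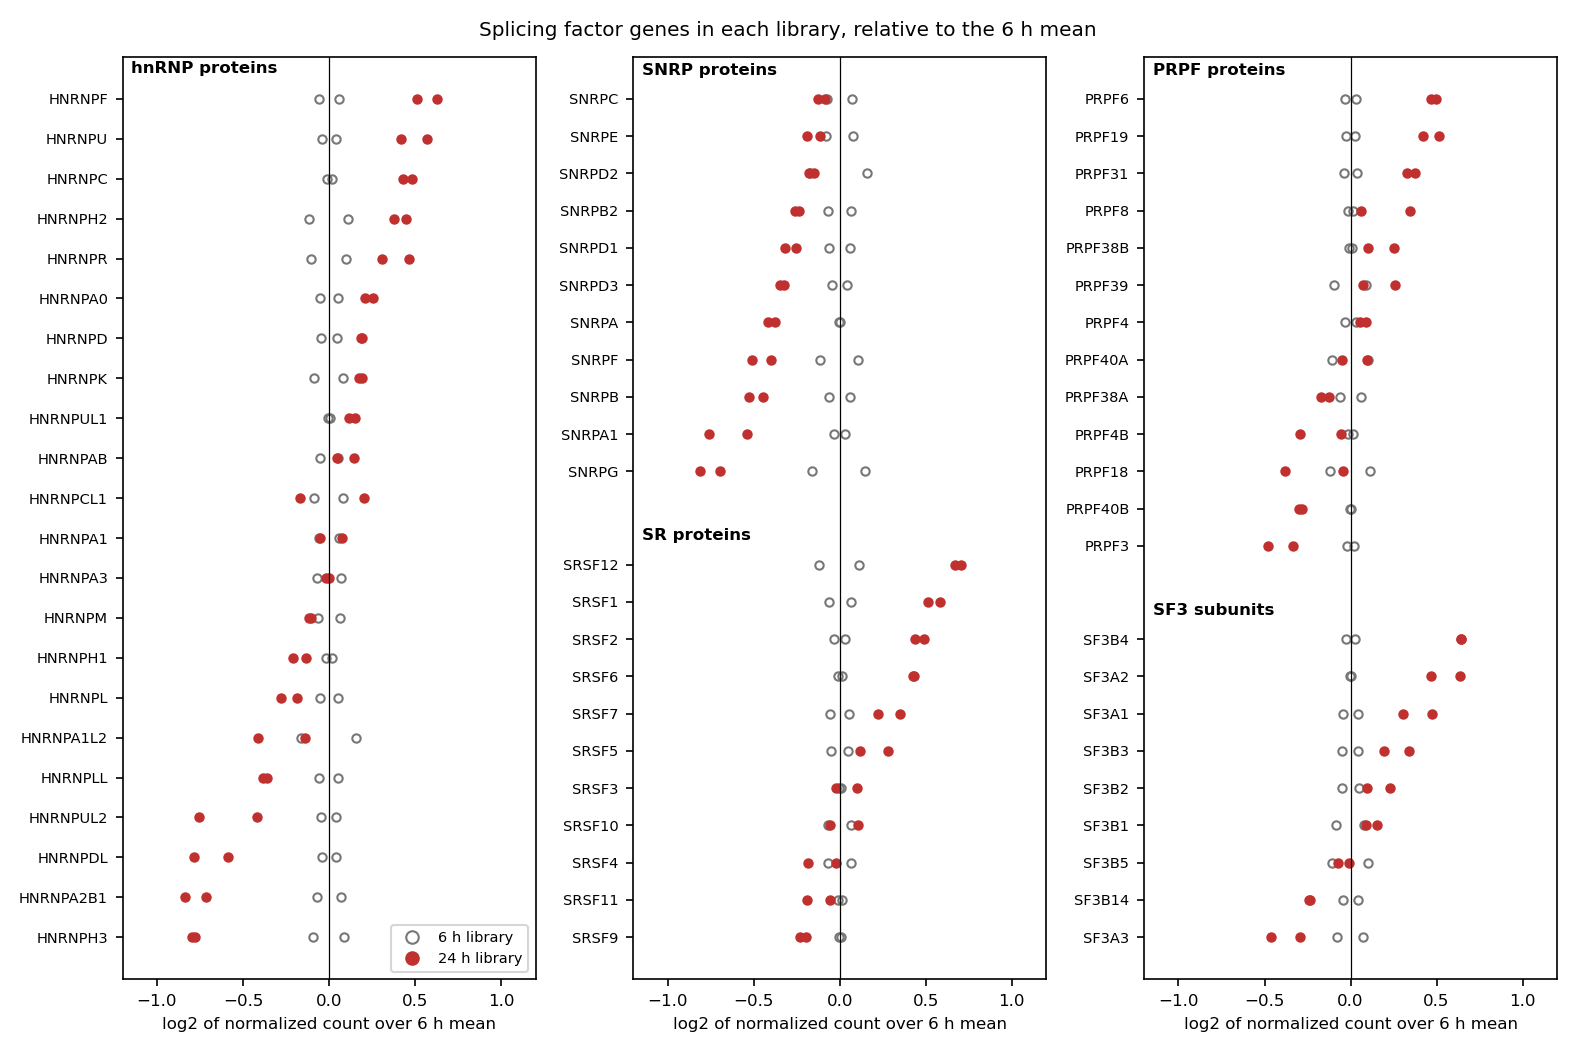
Normalized count of each tested member in each library, as the log2 ratio to the gene's 6 h mean, with open grey points for 6 h and filled red points for 24 h libraries, genes ordered by fold change within each family. In the SNRP panel the red points lie left of the grey ones for 10 of 11 genes, and the other families have genes on both sides.

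Only in the SNRP family did all log2 fold changes have the same sign. Of all genes tested 32.6% fell and 33.0% rose, so that 65.6% passed the test. The shares passing were 72.7% of SNRP, 66.7% of SF3, 63.6% of SR, 63.6% of hnRNP and 53.8% of PRPF genes. In the SNRP family all 11 members had a negative log2 fold change, with a median of -0.336, and 8 fell and 0 rose, by edgeR and by DESeq2, with 0 higher at an unadjusted P under 0.05 as well. The number that fell was 10 with library size alone and 10 with the replicate block. The SR proteins had a median of 0.202, with 6 of 11 rising (5 with DESeq2 and with library size alone) and 1 falling. This median was 0.126 without 24 h replicate 1 and 0.403 with the trend on length and GC content removed, and the 1 that fell was 0 without 24 h replicate 2. The SF3 subunits had a median of 0.164, or 0.104 without 24 h replicate 1, with 4 of 9 rising and 2 falling. The PRPF proteins had a median of 0.073, with 5 of 13 rising and 2 falling. That median was 0.034 without 6 h replicate 2 and 0.030 with library size alone. The number of PRPF genes that rose was 3 with DESeq2, with library size alone and without 6 h replicate 1, and the number that fell was 4 with library size alone and without 24 h replicate 1, and 1 with DESeq2, without 6 h replicate 1 and without 24 h replicate 2. Of the 22 hnRNPs 7 rose and 7 fell. With upper quartile scaling 9 rose and 6 fell, and with library size alone 6 rose and 7 fell. The hnRNP median of 0.024 turned to -0.019 with library size alone and to -0.051 without 6 h replicate 2. The medians of the other 4 families kept their sign under each scaling and with each library left out. These are descriptions, since members of a family are not replicates of the time point.

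**Figure D2:**
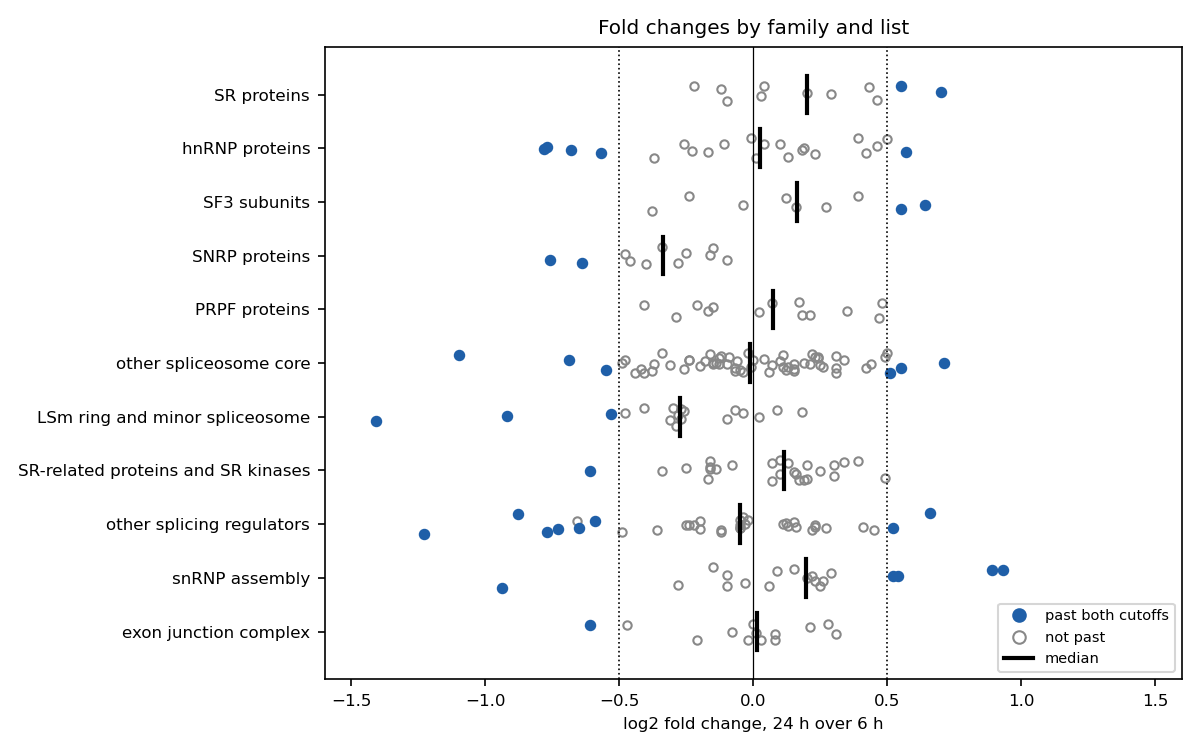
Log2 fold change of 24 h over 6 h for each tested gene of the 5 families and of 6 lists of other splicing genes, filled blue where past both cutoffs, with a bar at each median and dotted lines at the fold cutoff of 0.5. The SNRP family and the list of LSm ring and minor spliceosome genes have the lowest medians, -0.336 and -0.275.

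Among the SNRP genes, the Sm ring genes SNRPB, SNRPD1, SNRPD2, SNRPD3, SNRPE, SNRPF and SNRPG encode the core shared by the spliceosomal snRNPs. SNRPG, the Sm protein G gene on chromosome 2 (hg19 positions 70508494 to 70520903), was at 1433 and 1768 normalized counts at 6 h and at 911 and 988 at 24 h. Both 24 h values lay under both 6 h values, and the level was 0.592 times as high at 24 h (log2 fold change -0.76, SE 0.086, edgeR quasi-likelihood adjusted P = 1.85e-08). SNRPB, which encodes the Sm proteins B and B′, went from 4919 and 5356 to 3774 and 3569 normalized counts. This fall of 0.48 on the log2 scale was just under the fold cutoff, and passed it with library size alone, at -0.53, without 6 h replicate 1, at -0.55, and without 24 h replicate 1, at -0.52. SNRPF went from 1107 and 1287 to 907 and 841 normalized counts, a log2 fold change of -0.46 that was -0.56 without 6 h replicate 1 and -0.50 without 24 h replicate 1, past the cutoff both times. SNRPD3 and SNRPD1 fell by 0.34 and 0.28 on the log2 scale.

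SNRPD2, the gene with the highest level per kilobase of transcript in the family and among all members, was at 12040 and 15131 normalized counts at 6 h and at 12009 and 12258 at 24 h. One 24 h library lay above a 6 h library, and the log2 fold change of -0.16 did not pass the test (edgeR quasi-likelihood adjusted P = 0.105). SNRPE, at -0.15, did not pass it either (edgeR quasi-likelihood adjusted P = 0.0828). Both passed with library size alone and with the replicate block. Without 6 h replicate 1 the log2 fold changes were -0.32 for SNRPD2 and -0.23 for SNRPE, and without 6 h replicate 2 SNRPD2 stood at 0.01. The annotated span of SNRPD2 overlaps QPCTL, which was 0.547 times as high at 24 h. Although the ring holds its 7 proteins in equal number, their mRNA levels per kilobase spanned 73.5 times at 6 h, from 359 for SNRPD1 to 26379 for SNRPD2, and 79.9 times at 24 h. The length used is that of the annotated canonical transcript, which at 4858 bases for SNRPD1 and 3466 for SNRPD3 may be longer than the transcripts in these cells and would lower their values.

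The other SNRP genes belong to single snRNPs. SNRPA1, which encodes the U2 snRNP protein A′ (chromosome 15, hg19 positions 101821715 to 101835487), was at 392 and 410 normalized counts at 6 h and at 276 and 237 at 24 h. The 2 times did not overlap, and the level was 0.64 times as high at 24 h (log2 fold change -0.64, SE 0.108, edgeR quasi-likelihood adjusted P = 1e-05). SNRPB2, which encodes the partner of that protein in U2, fell by 0.25 on the log2 scale and did not pass the test without 6 h replicate 2, at -0.19. Of the U1 genes, SNRPA, which encodes the protein A of that snRNP, was at 1490 and 1481 normalized counts and then at 1145 and 1111, a fall of 0.40. SNRPC, which encodes its protein C, was at 2066 and 2278 and then at 2049 and 1992 normalized counts and did not pass the test (log2 fold change -0.10, edgeR quasi-likelihood adjusted P = 0.205).

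**Figure D3:**
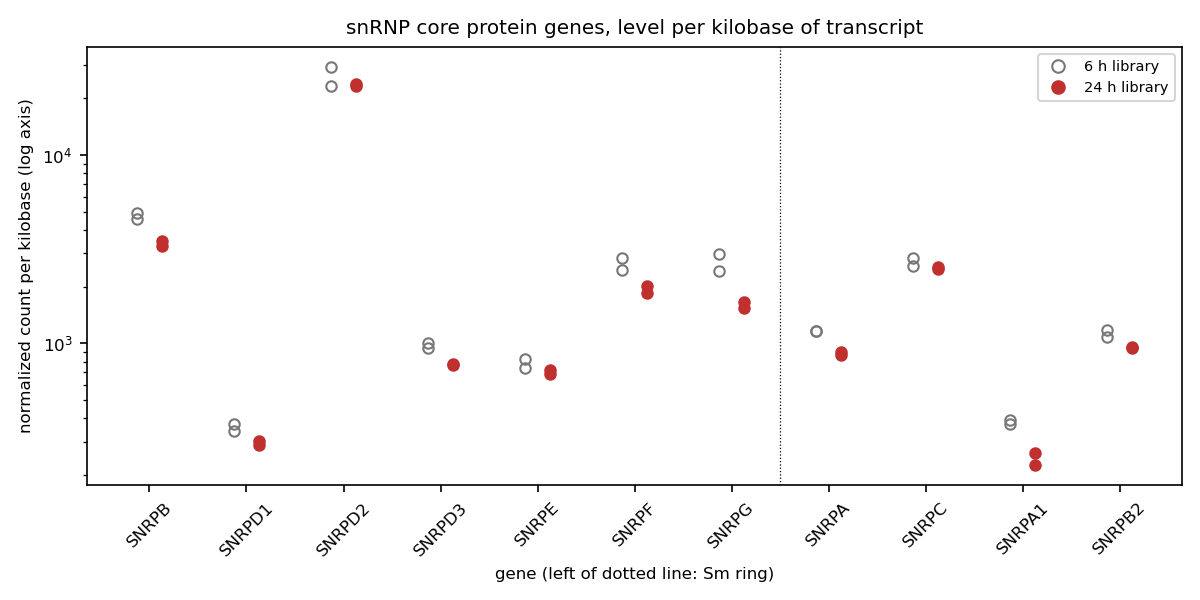
Normalized count per kilobase of transcript, on a log axis, for the 11 SNRP genes in each 6 h (open grey) and 24 h (filled red) library, with the Sm ring genes left of the dotted line. SNRPD2 stands above the other genes in all 4 libraries, and the red points lie under the grey ones for all genes but SNRPD2.

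A difference between the 6 h libraries moved with this family. The SNRP genes had short transcripts, with a median of 1082 bases against 3352 for all genes, and 10 of the 11 were higher in replicate 2 than in replicate 1 at 6 h, with a median log2 ratio of 0.13. All 563 genes with transcripts under 1000 bases and at least 100 mean normalized counts had a median log2 ratio of 0.119 between the same libraries, and a median log2 fold change of -0.066 from 6 h to 24 h. The SNRP median of 1082 bases is above that limit, so most SNRP genes are not in this set. Genes of 1000 bases or more, at the same count, had medians of -0.02 and 0.004. Over the 66 members, transcript length correlated with the ratio of the 6 h libraries (Pearson r = -0.50, Spearman rho = -0.37) and with the fold change (r = 0.29, rho = 0.26), where the points share the same libraries. Without 6 h replicate 2, 10 of the 11 SNRP genes were negative and 1 positive, and 7 fell; without 6 h replicate 1, all 11 were negative and 10 fell. Removing the trend of fold change on length and GC content over all genes left a family median of -0.234, with 8 genes negative and 3 positive. The part of transcript length in the lower SNRP levels is given by these values only.

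**Figure D4:**
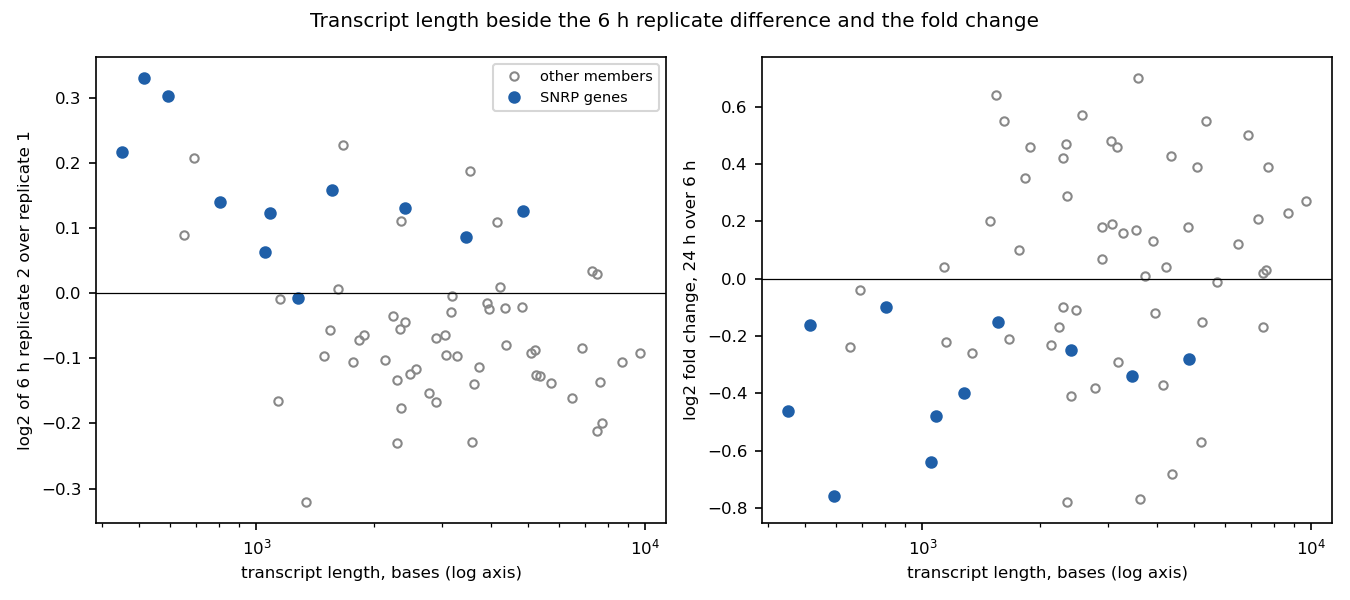
Transcript length in bases on a log axis against the log2 ratio of the 6 h libraries (left) and against the log2 fold change of 24 h over 6 h (right) for the 66 tested members, with SNRP genes in blue. SNRP genes lie mostly at the short end, above 0 on the left and below 0 on the right.

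The SF3 subunits moved both ways. SF3B4, an RNA-binding subunit of SF3B (chromosome 1, hg19 positions 149895209 to 149900236), was at 1750 and 1682 normalized counts at 6 h and at 2675 and 2677 at 24 h. Both 24 h values were above both 6 h values, and the level was 1.56 times as high (log2 fold change 0.64, SE 0.0699, edgeR quasi-likelihood adjusted P = 8.45e-09). SF3A2, a subunit of SF3A on chromosome 19, went from 1198 and 1203 to 1658 and 1863 normalized counts, 1.47 times as high (log2 fold change 0.55, SE 0.0744, edgeR quasi-likelihood adjusted P = 3.41e-07). Its call was lost without 24 h replicate 2, where the log2 fold change was 0.47, and its annotated span overlaps PLEKHJ1, at 1.18 times. SF3A1, the largest SF3A subunit, rose by 0.39 and SF3B3, an SF3B scaffold, by 0.27 on the log2 scale (0.20 and not past the test without 24 h replicate 2), while SF3A3 fell by 0.38, so the 3 subunits of SF3A did not move together.

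SF3B14, which encodes the branch point protein p14 and had the highest level per kilobase of the SF3 genes, was at 3884 and 4130 normalized counts at 6 h and at 3388 and 3398 at 24 h, a fall of 0.24 on the log2 scale. SF3B1, which encodes the largest SF3B subunit, contacts the branch region and is often mutated in blood cancers, was at 11159 and 9978 and then at 11740 and 11258 normalized counts. The times did not overlap, but the log2 fold change of 0.12 did not pass the test (edgeR quasi-likelihood adjusted P = 0.171) other than without 6 h replicate 1, at 0.20. Levels per kilobase spanned 14.1 times over the 6 SF3B genes and 2.79 times over the 3 SF3A genes at 6 h. The letters CCGGAAG or their reverse complement stood in promoters of SF3 genes that rose and of SF3 genes that fell, as these lines show, read as for the SNRP genes; SF3B14 is listed by RefSeq as SF3B6.
SF3B4, chr1:149927804-149927854, minus strand: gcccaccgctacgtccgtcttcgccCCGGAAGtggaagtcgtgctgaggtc
SF3A2, chr19:2236790-2236823, plus strand: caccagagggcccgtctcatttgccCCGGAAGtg
SF3A3, chr1:37990059-37990115, minus strand: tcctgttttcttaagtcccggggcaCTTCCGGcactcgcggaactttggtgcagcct
SF3B14, chr2:24076327-24076370, minus strand: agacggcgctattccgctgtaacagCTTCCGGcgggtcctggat

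Of the 13 PRPF genes 0 were past both cutoffs by edgeR or DESeq2, and at an unadjusted P under 0.05 edgeR gave 3 lower and 5 higher. PRPF6, which bridges the U4/U6 and U5 parts of the tri-snRNP, was at 1716 and 1642 normalized counts at 6 h and at 2365 and 2318 at 24 h, a rise of 0.48 on the log2 scale (SE 0.0699, edgeR quasi-likelihood adjusted P = 1.17e-06). PRPF19, the ubiquitin ligase of the complex that stabilises the catalytic spliceosome, rose from 1949 and 1876 to 2729 and 2563 normalized counts, by 0.47. The first passed the fold cutoff with upper quartile scaling, at 0.51, without 6 h replicate 1, at 0.51, and without 24 h replicate 2, at 0.50, and the second without 24 h replicate 2, at 0.52. The span of PRPF6 overlaps ZNF512B, which was 1.53 times as high at 24 h. PRPF31, mutated in inherited retinal degeneration like several other tri-snRNP genes, rose by 0.35, while PRPF3, a U4/U6 protein and the PRPF gene with the highest level per kilobase at 6 h, 819 against 818 for PRPF19, fell from 2008 and 1947 to 1569 and 1416 normalized counts, by 0.41. At 24 h its level per kilobase was 618 and that of PRPF19 was 1132. PRPF8, the large protein at the heart of the spliceosome, was at 4370 and 4475 and then at 4608 and 5623 normalized counts. Its log2 fold change was 0.21, with the lower 24 h library close to those of 6 h. PRPF8 no longer passed the test with DESeq2, at 0.21, or with library size alone, at 0.17. It also did not pass without 24 h replicate 2, at 0.07, or without 6 h replicate 1, at 0.19.

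Most of the SR proteins that passed the test rose. SRSF1, the founding member of the family (chromosome 17, hg19 positions 56080721 to 56084707), was at 4030 and 3689 normalized counts at 6 h and at 5771 and 5510 at 24 h. The times did not overlap, and the level was 1.46 times as high (log2 fold change 0.55, SE 0.0729, edgeR quasi-likelihood adjusted P = 2.75e-07), with the call lost without 6 h replicate 2, at 0.48. SRSF12, an SR protein known to oppose splicing activation, was rare, at 50.7 and 43.2 normalized counts and then 76.7 and 74.9. Its level was 1.62 times as high (log2 fold change 0.70, SE 0.208, edgeR quasi-likelihood adjusted P = 0.00479). Its call was lost with DESeq2, at 0.69, without 6 h replicate 2, at 0.57, and without 24 h replicate 1, at 0.69. SRSF2, whose coding changes are known from myeloid disease, rose from 2126 and 2033 to 2915 and 2817 normalized counts, by 0.46 on the log2 scale, and SRSF6 from 4173 and 4108 to 5593 and 5558, by 0.43. SRSF7 and SRSF5 rose by 0.29 and 0.20, the latter no longer passing the test without 6 h replicate 2, at 0.15, without 24 h replicate 1, at 0.13, or with library size alone.

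The other SR proteins did not rise. SRSF3, the smallest SR protein, was at 7262 and 7308 normalized counts at 6 h and at 7803 and 7175 at 24 h, with the later libraries on both sides of the earlier ones and a log2 fold change of 0.04, which was -0.01 without 24 h replicate 1. SRSF9, with the highest level per kilobase among the SR genes, fell from 4787 and 4759 to 4161 and 4060 normalized counts, by 0.22 (edgeR quasi-likelihood adjusted P = 0.00881), and did not pass without 24 h replicate 2, at -0.19. SRSF4 and SRSF11 had log2 fold changes of -0.10 and -0.12 and SRSF10 of 0.03, none past the test, and SRSF10 was at -0.05 without 6 h replicate 2 and without 24 h replicate 1. A second gene model named SRSF10, on an unplaced scaffold, had 0 counts in all 4 libraries and was not tested.

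The hnRNPs held the 2 members with the largest falls, HNRNPH3 and HNRNPA2B1, and also members that rose. HNRNPA2B1, which encodes the A2 and B1 proteins that bind pre-mRNA and sort RNAs (chromosome 7, hg19 positions 26229547 to 26241149), was at 21402 and 19432 normalized counts at 6 h and at 12447 and 11435 at 24 h. The times did not overlap, and the level was 0.585 times as high at 24 h (log2 fold change -0.77, SE 0.0809, edgeR quasi-likelihood adjusted P = 3.92e-09). The neighbouring gene CBX3, with which its annotated span overlaps, went from 9357 and 9762 to 6687 and 6379 normalized counts, 0.683 times as high, and reads in the overlap were not separated here. By contrast its close relative HNRNPA1 was at 3936 and 3638 and then at 3986 and 3648 normalized counts, a log2 fold change of 0.01 that was -0.05 without 6 h replicate 2 and without 24 h replicate 1. HNRNPC, whose protein packages nascent RNA, rose from 13869 and 13595 to 19177 and 18522 normalized counts, by 0.46 on the log2 scale. The per kilobase level of HNRNPA2B1 was thus above that of HNRNPC at 6 h, 5628 against 4339, and under it at 24 h, 3291 against 5956.

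The H and F group of hnRNPs, which bind G-rich sequence, split as well. HNRNPH3 (chromosome 10, hg19 positions 70090931 to 70102948) was at 2829 and 2504 normalized counts at 6 h and at 1557 and 1538 at 24 h, 0.581 times as high (log2 fold change -0.78, SE 0.0741, edgeR quasi-likelihood adjusted P = 5.72e-10). HNRNPF, on the same chromosome, was at 10050 and 9271 and then at 14909 and 13785 normalized counts, 1.49 times as high (log2 fold change 0.57, SE 0.0779, edgeR quasi-likelihood adjusted P = 4.23e-07). Neither pair of times overlapped, and these paralogues moved in opposite directions. HNRNPH2 rose by 0.42, and by 0.53 without 6 h replicate 1, past the cutoff, while HNRNPH1 fell by 0.17 on the log2 scale. That fall did not pass the test with upper quartile scaling, with no filter, or without 6 h replicate 1, 24 h replicate 1 or 24 h replicate 2, at -0.16, -0.13 and -0.20. The annotated span of HNRNPH3 overlaps RUFY2, at 0.705 times, and PBLD, at 1.37 times.

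HNRNPDL, a relative of the AU-rich element binding protein HNRNPD, was at 6901 and 6532 normalized counts at 6 h and at 4466 and 3902 at 24 h. Its level was 0.623 times as high at 24 h, with no overlap between the times (log2 fold change -0.68, SE 0.0764, edgeR quasi-likelihood adjusted P = 1.36e-08), whereas HNRNPD itself rose by 0.19, which did not pass with library size alone or without 6 h replicate 2, 24 h replicate 1 or 24 h replicate 2, at 0.14, 0.19 and 0.20. HNRNPUL2, of the hnRNP U group, went from 331 and 312 to 191 and 241 normalized counts, 0.674 times as high (log2 fold change -0.57, SE 0.121, edgeR quasi-likelihood adjusted P = 0.000193), and lost its call without 24 h replicate 1, at -0.41. HNRNPU, which binds chromatin-associated RNA, moved the other way, from 9006 and 8498 to 11707 and 13009 normalized counts. Its log2 fold change, 0.50 when rounded, was just under the cutoff and passed it with upper quartile scaling, at 0.53, with at least 10 counts in every library, at 0.50, without 6 h replicate 1, at 0.54, and without 24 h replicate 1, at 0.58. HNRNPK, with the highest level per kilobase of the family at 6092, was at 18617 and 16581 and then at 19818 and 20085 normalized counts, and just missed the test (log2 fold change 0.18, edgeR quasi-likelihood adjusted P = 0.0509), which it passed with DESeq2, upper quartile scaling and both other filters, and without 6 h replicate 1, at 0.27.

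HNRNPR, a relative of the RNA-binding protein SYNCRIP, rose by 0.39 on the log2 scale, and HNRNPL and its paralogue HNRNPLL, known for its part in lymphocyte splicing, fell by 0.23 and 0.37. The fall of HNRNPL did not pass without 6 h replicate 1, at -0.18, or without 24 h replicate 2, at -0.18. HNRNPA1L2 and HNRNPCL1, copies close in sequence to HNRNPA1 and HNRNPC, stood at 146 to 216 and at 30.9 to 39.9 normalized counts. Reads of such copies may be shared with their parents, and their log2 fold changes of -0.26 and 0.04 did not pass the test. HNRNPA1L2 passed without 6 h replicate 2, at -0.43, and without 24 h replicate 1, at -0.40, and HNRNPCL1 was at -0.05 and -0.15 without 6 h replicate 2 and 24 h replicate 2. A read-through model joining HNRNPUL2 and BSCL2 had at most 3 counts in any library and was not tested.

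Of the other splicing genes, the LSm ring and minor spliceosome list resembled the SNRP family in sign. Most LSm proteins of this list form the ring of the U6 snRNP or of a cytoplasmic decay complex, and LSM10 and LSM11 belong to neither. Of 18 genes tested 11 fell and 0 rose, and 0 were higher at an unadjusted P under 0.05 by edgeR or called higher by DESeq2. The median log2 fold change was -0.275, and 3 genes were called lower. Of all genes tested 32.6% fell, 33.0% rose and 17.7% were called lower. LSM5 went from 1496 and 1684 to 593 and 608 normalized counts, 0.377 times as high (log2 fold change -1.41, SE 0.0812, edgeR quasi-likelihood adjusted P = 2.42e-14). LSM3 and LSM4 fell by 0.92 and 0.53, and the call of LSM4 was lost with upper quartile scaling, at -0.50, without 6 h replicate 2, at -0.39, and without 24 h replicate 2, at -0.47. The count of 3 was 5 without 6 h replicate 1, and the 0 that rose was 1 without 24 h replicate 2. In this list too, 15 of 18 genes were higher in 6 h replicate 2 than in replicate 1, with a median log2 ratio of 0.144.

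Of the 19 genes that assemble snRNPs, 13 had a positive log2 fold change and 6 were negative. By the test 9 rose and 2 fell, and the median of 0.195 was 0.116 without 24 h replicate 1. The number that rose was 5 with DESeq2 and 6 with library size alone. In this list 57.9% passed the test and 26.3% were called, beside 65.6% and 35.1% of all genes. GEMIN4 and GEMIN5, parts of the SMN complex that loads Sm rings onto RNA, were 1.91 and 1.85 times as high at 24 h. TGS1, which adds methyl groups to the cap of snRNAs, was 1.46 times as high. GEMIN2, which holds the open Sm ring in the same complex, was at 627 and 651 normalized counts and then at 312 and 356, 0.523 times as high. The count of 4 called higher was 2 with library size alone and 2 without 6 h replicate 2, TGS1 losing its call in both, at 0.50 and 0.44, and also without 24 h replicate 1, at 0.47.

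Among 64 other spliceosome core genes 15 fell and 19 rose, and 3 were called in each direction. In this list 53.1% passed the test and 9.38% were called, beside 65.6% and 35.1% of all genes. PPIH, a cyclophilin of the tri-snRNP, fell by 1.10 on the log2 scale, SNRNP27 by 0.69 and U2SURP by 0.55, while the helicase gene DDX42 rose by 0.71, the branch point binding protein gene SF1 by 0.55 and TFIP11, needed for spliceosome disassembly, by 0.51. The 3 called lower became 6 without 6 h replicate 2 and 6 without 24 h replicate 1. The call of U2SURP was lost without 6 h replicate 1, at -0.50, and without 24 h replicate 2, at -0.41, and that of SF1 without 24 h replicate 2, at 0.49. TFIP11 lost its call with library size alone, at 0.47, without 6 h replicate 2, at 0.40, and without 24 h replicate 1, at 0.43. The list of other splicing regulators had 13 of 36 genes falling and 8 rising, with 6 called lower. Its shares were 58.3% passing the test and 22.2% called, also under those of all genes. MBNL1, a muscleblind protein that sets alternative exons in differentiating cells, went from 7914 and 7126 to 3304 and 3129 normalized counts, 0.428 times as high, whereas its paralogue MBNL2 was 1.58 times as high. RBM47 and CELF1 fell by 0.88 and 0.73, and QKI, which regulates exon choice and circular RNA, rose by 0.52. The 2 called higher, MBNL2 and QKI, became 1 with library size alone and 1 without 6 h replicate 2, where QKI was at 0.48 and 0.41.

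Of 26 SR-related proteins and SR kinases 8 rose and 5 fell, and the only call was RSRC1, which fell by 0.61 on the log2 scale. In this list 50% passed the test and 3.85% were called, beside 65.6% and 35.1% of all genes. The count called higher was 0 by edgeR and by DESeq2, with 10 at an unadjusted P under 0.05, and was 1 with upper quartile scaling, 1 without 6 h replicate 1 and 2 without 24 h replicate 1. Of the kinases that phosphorylate SR proteins, which are named after their values were seen, CLK3 fell by 0.34 on the log2 scale and DYRK1A rose by 0.34. CLK2 rose by 0.20 and no longer passed the test with DESeq2, with library size alone, without 6 h replicate 2, at 0.17, or without 24 h replicate 1, at 0.17. CLK1, CLK4, SRPK1 and SRPK2 had log2 fold changes of -0.16, 0.19, -0.16 and -0.14 that did not pass. With one library left out, CLK4 passed without 24 h replicate 2, at 0.31, SRPK1 without 24 h replicate 1, at -0.25, and SRPK2 without 24 h replicate 2, at -0.21. The 5 that fell in the list were 8 with library size alone, and 3 with DESeq2, with no filter, with upper quartile scaling and without 6 h replicate 1. Of 13 exon junction complex genes 3 rose and 3 fell, so 46.2% passed the test, and 7.69% were called. The only call was UPF3B, of nonsense-mediated decay, which fell by 0.61 and lost its call without 24 h replicate 2, at -0.46.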

How the data were processed

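RNA-seq of TPC1 cells was analysed from the table of 4 libraries. The labels give alignment with STAR 2.3 to hg19, whereas the methods name a later version of STAR. The authors deposited the raw count of reads per gene, whose counting program and strand setting are not given in the sources used here. The deposited normalized signal, a count divided by a DESeq2 size factor, and the columns of the authors' comparison (mean, log2 fold change, standard error, statistic, P and adjusted P) were not used. The number of unmapped sample columns was 0.

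Counts were fitted with edgeR 4.0.16 in R 4.3.3 over all genes kept by filterByExpr, with TMM scaling, time as the only factor, the quasi-likelihood test and Benjamini-Hochberg adjustment. The methods give a log2 fold change under -0.5 and P under 0.01; here this was applied in both directions, to the unadjusted P. Normalized counts are counts over TMM-scaled library size, and standard errors come from the fold change and its F statistic. Levels per kilobase and lengths use the GENCODE v44 canonical transcript, matched by Ensembl identifier, and sequences come from RefSeq. The script was tested on simulated data. The depth of 23917056 to 27457040 reads limits precision mainly for the 2 tested members under 100 mean normalized counts.

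The members and lists were chosen with earlier results of these data known. Named members were those past the cutoffs (up to 10 in each direction), the highest per kilobase in each family, those whose call changed under an alternative, and those not tested. Of each list, up to 3 called genes in each direction with a mean of at least 100 normalized counts were named. Other genes named were chosen after their values were seen. Alternatives were DESeq2 1.42.0, library size alone, upper quartile scaling, 2 other count filters, a replicate block, other cutoffs, each library left out, and, chosen after seeing the data, removal of the trend on length and GC content. One gene of the marker lists is not reported here.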

Additional observations from a re-analysis of the deposited data

How the results depend on the processing

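The count of members lower at 24 h, 6, was 20 by adjusted P alone and 0 at an absolute log2 fold change over 1, and 6 to 8 with one library left out. The count higher, 5, was 22 and 0 with those cutoffs, and 3 to 8 with one library left out, 8 without 6 h replicate 1 and 3 without 6 h replicate 2. With the replicate block the counts were 6 and 5 and the member median 0.018. Deviations of same-numbered libraries from the mean of their time had a correlation of 0.0844 across genes. With 2 libraries at each time the second pair mirrors the first. This value therefore cannot show whether same-numbered libraries shared a culture or day. By adjusted P alone, the block moved the SNRP genes that fell from 8 to 10, with SNRPD2 and SNRPE passing, and the PRPF genes that fell from 2 to 4. Over 10 alternatives, 7 of 11 calls never changed, 4 were lost in some and 6 members gained one. With the trend on length and GC content removed, the family medians were 0.403 for SR proteins and -0.234 for SNRP proteins, and the list medians -0.181 for the LSm ring, -0.124 for other splicing regulators, -0.062 for the exon junction complex and -3.953 for cycling cell genes. With one library left out, medians ran from 0.104 to 0.211 for SF3 subunits, 0.009 to 0.044 for the exon junction complex and -4.053 to -3.999 for cycling cell genes, and calls numbered 2 to 6 for lower other core genes, 2 to 5 for lower LSm ring genes, 0 to 2 for higher SR-related genes, 1 to 3 for higher other regulators, 2 to 4 for higher snRNP assembly genes and 0 to 1 for lower exon junction genes. Library size alone gave 5 lower core genes, 1 higher regulator, 2 higher assembly genes, 2 lower exon junction genes and an exon junction median of -0.030. Upper quartile scaling gave 5 higher core genes, 1 higher SR-related gene and an exon junction median of 0.042, which was 0.010 with DESeq2 and 0.016 with at least 10 counts in every library. No called gene reversed among 470 values of named genes, of which 435 kept their side of the cutoffs, while uncalled genes near 0 such as SNRPD2 changed sign with one library left out. The cause of these shifts was not tested. With one library left out, the lone library at that time is assumed to vary like the pair at the other. With 2 libraries at each time, members of low count such as SRSF12 are measured with the least precision.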
